A study of Rattus norvegicus with 458 samples.

Results

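The small intestine was represented by 20 small RNA libraries, 10 labelled Jejunum and 10 labelled Ileum, and the series held 195 more, with 23 tissue labels in all. The 20 were set against 169 libraries of 19 other tissue labels: adrenal, biceps, brainstem, cerebellum, cerebrum, glandular stomach, heart, hippocampus, whole kidney, kidney cortex, kidney medulla, liver, non-glandular stomach, ovary, pancreas, soleus, testis, uterus and whole blood. The members were chosen by label, and libraries of other labels were left out for their profiles as given below. All libraries came from untreated Sprague Dawley rats of 12 to 13 weeks, 5 male and 5 female, killed with CO2, and each rat gave 1 library of each segment. The jejunum was cut at its midpoint and the ileum at its distal end, the lumen was flushed with RNAlater, and the whole wall was homogenized, so the libraries hold epithelium, stroma, immune cells and muscle together. The RNA of 2 jejunum libraries, those of rats 10 and 11, was extracted again from the homogenate. The dorsal root ganglion label was left out because its 10 libraries are technical libraries of pooled RNA, and the Duodenum label because 4 of its 10 libraries have the profile of another organ. For the same reason 6 single libraries were left out, and of these the libraries labelled Adrenal of rat 8, Hippocampus of rat 6, Ovary of rat 11 and Uterus of rat 8 held between 210076 and 270908 counts per 1000000 (CPM) of miR-215, by mean the most abundant small intestine miRNA described below.

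A microRNA (miRNA) is a short RNA that pairs with messenger RNAs mainly through its seed, bases 2 to 8 from the 5′ end, and lowers their output. The small intestine is lined by a single layer of absorptive and secretory cells that is renewed continually from crypt stem cells, and miR-192, miR-194 and miR-215 are the classical miRNAs of this epithelium, with miR-192 and miR-194 also known from liver and kidney. The miR-200 family keeps epithelial cells in their epithelial state, and miR-143 and miR-145 are known from smooth muscle. In tissue RNA, a lower level from fewer cells of a type and one from less of the miRNA per cell cannot be told apart.

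The sequences behind the results are given first, from RefSeq (build GRCr8), with the seed in capitals. The 3 marker miRNAs of the small intestine are shown because the first 2 share a seed and all 3 come from linked genes.
miR-192-5p: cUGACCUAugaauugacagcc
miR-215: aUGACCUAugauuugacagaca
miR-194-5p: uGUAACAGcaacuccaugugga
Counted from 1 at the 5′ end and with the base of miR-192-5p first, the differences between miR-192-5p and miR-215 were C1A, A12U and C20A, so that 18 of the 21 shared positions were identical. The mature miR-192-5p lies at chr1:212994232-212994252 and the mature miR-215 at chr13:99383003-99383024, both on the plus strand. The hairpins of Mir192 and Mir194-2 lie 100 bases apart, and those of Mir194-1 and Mir215 lie 191 bases apart. Both Mir194 genes give the same mature miR-194-5p. The next 3 miRNAs are shown because they carried results of their own outside that family.
miR-147: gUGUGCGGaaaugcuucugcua
miR-130b-3p: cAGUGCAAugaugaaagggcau
miR-34a-5p: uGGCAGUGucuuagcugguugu
The miR-196 miRNAs are shown because they separated the ileum from the jejunum while differing at a single position.
miR-196a-5p: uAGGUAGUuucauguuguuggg
miR-196b-5p: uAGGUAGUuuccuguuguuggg
miR-196c-5p: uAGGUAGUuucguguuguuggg
That position was number 12, with the changes A12C from miR-196a-5p to miR-196b-5p and A12G to miR-196c-5p. Since 21 of 22 bases were the same, a read with 1 error there may have been counted under another name of the family.

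The small intestine libraries held 1041508 to 6647982 counts on miRNA names (median 4708922), against 376401 to 17725805 in the other tissues. RNA integrity numbers lay between 6.9 and 8.9 in jejunum and between 8.5 and 9.2 in ileum. The median correlation of a library with the other libraries of its segment was between 0.952 and 0.974 in jejunum and between 0.908 and 0.973 in ileum, and each of the 20 libraries correlated more with its own segment than with any of the 19 other tissues. The ileum library of rat 9 stood apart, with both the lowest depth and the lowest correlation, and the counts of calls and the values of the names it leads are also given without it. Summed counts of the 4 pancreas miRNA names of the miR-216 and miR-217 genes were at most 1.81 CPM in any of the 20 libraries, and miR-122-5p, which defines liver, was at most 5.16 CPM.

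Levels below are CPM of the library's counts on miRNA names. The log2 fold change (log2FC) is another quantity, the difference between the mean log level of the 2 segments and the mean of the log levels of the 19 other tissues after upper quartile scaling, with its standard error (SE). It gives each tissue the same weight and so can have another sign than the ratio of mean CPM where 1 or 2 tissues are very high. All adjusted p values of fold changes are from edgeR's quasi-likelihood test with Benjamini-Hochberg adjustment over all 1316 names tested, with a threshold of 0.05.

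Of the 1316 names, 393 were higher in small intestine (29.9%) and 264 were lower (20.1%), so that 657 differed in either direction (49.9%). The median log2FC of all names was 0.05. Of the 732 known miRNAs tested, 183 were higher and 244 lower, and the other names called were predicted miRNAs and precursors. The counts of the lists below are of known miRNAs and stand beside these shares. A stricter count required each of the 19 tissues to be passed in a test of its own. By that count 22 names (1.67%) were higher than every tissue, 13 of them known miRNAs, and 1 name (0.076%) was lower than every tissue. Every one of the 20 libraries lay above the mean of each other tissue for 11 names (0.836%), and above every one of the 169 other libraries for 8 names (0.608%). When libraries were scaled by their total alone, which moves the median log2FC of all names by -0.65, 227 names were higher and 384 lower, and the share of calls in the higher direction was 37.2% in place of 59.8%.

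miR-215 was the leading miRNA of the small intestine by mean, although in ileum it was counted less than miR-143-3p (9304272 against 13829029 counts). It was counted at 172775 CPM in the lowest library, 283662 CPM in the median and 437638 CPM in the highest (mean 298032), while the mean of the 19 other tissues was 159 CPM. All 20 libraries were above all 169 others, and the log2FC was 12.80 ± 0.41 (SE, adjusted p = 7.31e-72). The 169 do not include the libraries left out for another organ's profile, some of which held 210076 to 270908 CPM. The separation thus holds for the libraries kept and depends on that choice. The highest of the other tissues was the glandular stomach at 1263 CPM, which rested on 1 of its 10 libraries. That library, from rat 3, held 12303 CPM, whereas the other 9 had a mean of 36.5 CPM and a maximum of 80.6 CPM. Without rat 3 the tissue with the smallest difference was the testis (log2 difference 10.87), in place of the glandular stomach (7.55).

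miR-192-5p, which shares the seed of miR-215, was almost as abundant and less restricted. Its level was 158339, 199172 and 250297 CPM in the lowest, median and highest library of small intestine. Liver came next with 121200, 147469 and 168642 CPM, and 18 of the 20 small intestine libraries were above all liver libraries, so that the groups overlapped. The log2FC was 7.42 ± 0.10 (adjusted p = 1.09e-131), and the difference from liver alone was 1.12 (adjusted p = 9.82e-08). The kidney cortex followed with a mean of 70816 CPM.

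miR-194-5p, made from the same 2 transcription units as the others, was counted at 10104, 15452 and 20060 CPM in the lowest, median and highest library. All 20 libraries exceeded the highest liver library, at 7236 CPM, and every library kept of the 19 tissues. The log2FC was 7.57 ± 0.10 (adjusted p = 1.09e-131) and the difference from liver was 1.78 (adjusted p = 6.33e-15). Together miR-215, miR-192-5p and miR-194-5p took between 39.2% and 64.2% of all counts of a small intestine library, against 0.0113% to 17.5% in the other tissues. miR-194-5p was higher than every tissue in 26 of 26 other settings, and miR-215 and miR-192-5p in 25, the exception being the fit that kept the 6 libraries with another organ's profile. Within each of the 3 flow cells taken alone, the log2FC of miR-215 was 12.98, 13.56 and 12.94, and over 31 settings it ran from 10.66 to 13.56, with 6.17 to 7.74 for miR-192-5p and 6.26 to 7.88 for miR-194-5p. The plot of the 3 miRNAs by library shows how the tissues order.

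**Figure D1:**
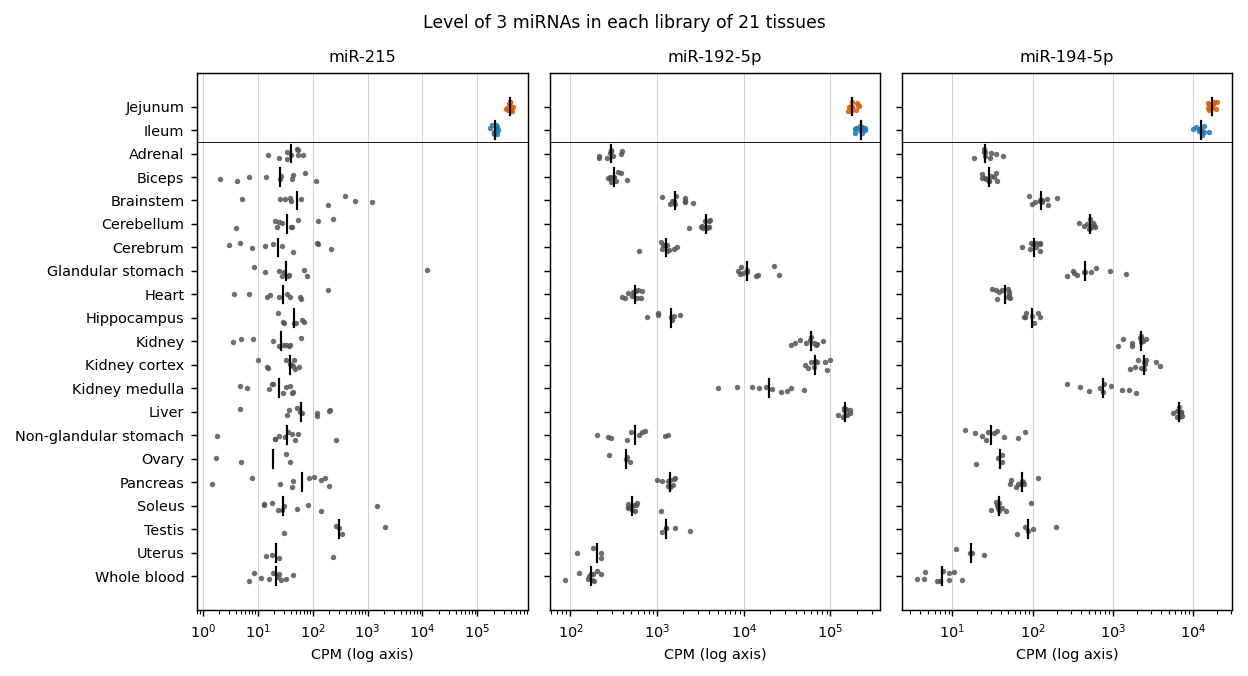
CPM of miR-215, miR-192-5p and miR-194-5p on log axes, with 1 point per library and a black bar at the median of each of 21 tissues (jejunum orange, ileum blue, other tissues grey). For miR-215 the 20 small intestine libraries lie at 172775 CPM or more and the highest other library kept, of glandular stomach, at 12303 CPM. For miR-192-5p and miR-194-5p the liver comes next and the kidney labels follow.

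The passenger strands behaved differently from the main strands in liver. miR-192-3p was counted at 19.1, 34.2 and 41.8 CPM in the lowest, median and highest library and miR-194-3p at 14.1, 22.7 and 35.7 CPM. Both were higher than in the mean of the other tissues, with log2FC of 6.26 ± 0.15 and 6.20 ± 0.14 (adjusted p = 4.02e-91 and 2.35e-91). Neither differed from liver past the threshold, with log2 differences of -0.03 for miR-192-3p and 0.23 for miR-194-3p. All 5 names of the family list were thus higher in small intestine, with a median log2FC of 7.42, and 3 of them were higher than every tissue.

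Reads that the annotation split off from these miRNAs followed the same pattern. The name miR-215-5p, taken from the human annotation for reads not given to the rat miR-215, reached 28.8, 61.9 and 576 CPM (log2FC 9.73 ± 0.23, adjusted p = 2.97e-90). The 576 CPM came from the ileum library of rat 3, and the next ileum library held 62.9 CPM. In that library of rat 3, 39.4% to 67.3% of the counts of a marker began at another 5′ base. The composite name miR-192-5p;miR-215 holds reads that fit both and reached 43.3, 85.1 and 186 CPM (log2FC 9.30 ± 0.23, adjusted p = 3.92e-79). Both were higher than every tissue, and neither is evidence apart from miR-192-5p and miR-215 themselves.

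The miR-200 family, with Mir200b and Mir429 on chromosome 5 and Mir141 and Mir200c on chromosome 4, was higher in small intestine for all 9 of its names, and their median log2FC was 6.13. These miRNAs repress the transcription factors ZEB1 and ZEB2. miR-200b-3p was the most abundant of them at 2579, 3771 and 6082 CPM, and miR-429 stood at 929, 1681 and 2504 CPM. The log2FC was 7.07 ± 0.14 for miR-200b-3p (adjusted p = 2.53e-101) and 6.13 ± 0.14 for miR-429 (adjusted p = 1.09e-94). None of the 9 was higher than every tissue. miR-200b-3p exceeded 18 of 19 tissues and its difference from the glandular stomach was 0.63 (adjusted p = 0.0626). miR-141-3p and miR-200c-3p were lower than in pancreas, with log2 differences of -3.63 and -0.95, where the mean of miR-141-3p was 17730 CPM against 992 CPM in small intestine.

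Other epithelial miRNAs were higher for 12 of 13 names, with a median log2FC of 3.59. Among them miR-147 was higher than every tissue. miR-147 is known as a miRNA induced in inflamed cells and was counted at 29.0, 75.3 and 135 CPM, with all 20 libraries above every other library. Its log2FC was 5.83 ± 0.13 (adjusted p = 6.11e-94), and the smallest difference, from the glandular stomach, was 2.50 (largest adjusted p over the 19 tissues 3.88e-10). miR-802-5p, known from liver and pancreas, stood at 113, 185 and 280 CPM with a log2FC of 7.86 ± 0.17, but was lower than in liver (1064 CPM, log2 difference -1.97). miR-375-3p, known from islet and other secretory cells, stood at 2771, 3847 and 7005 CPM with a log2FC of 5.13 ± 0.14, below the pancreas at 37202 CPM. miR-203a-3p, known from stratified epithelium, had a log2FC of 5.09 ± 0.10 and was lower than in non-glandular stomach (log2 difference -1.12), although the mean CPM were close at 1548 and 1581. miR-31a-5p had a log2FC of 3.65 ± 0.13, and the miR-183 cluster, miR-182, miR-183-5p and miR-96-5p, had log2FC between 2.94 and 3.13. miR-205, a marker of basal and squamous cells, was low at 27.8, 40.1 and 62.6 CPM with a log2FC of 1.81 ± 0.13, against a mean of 1074 CPM in non-glandular stomach. The member that did not pass was the single name miR-148a-3p, which was at 0 CPM in the median library (log2FC 0.62 ± 0.31, adjusted p = 0.0885). Most reads of this miRNA were counted under a joint name with a predicted miRNA, described after its values were seen. That name stood at 3429, 4558 and 6020 CPM and was higher (log2FC 0.82 ± 0.09, adjusted p = 9.51e-16), a call that was lost with library totals alone, with 12 organs weighted equally and with the 6 libraries kept.

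**Figure D2:**
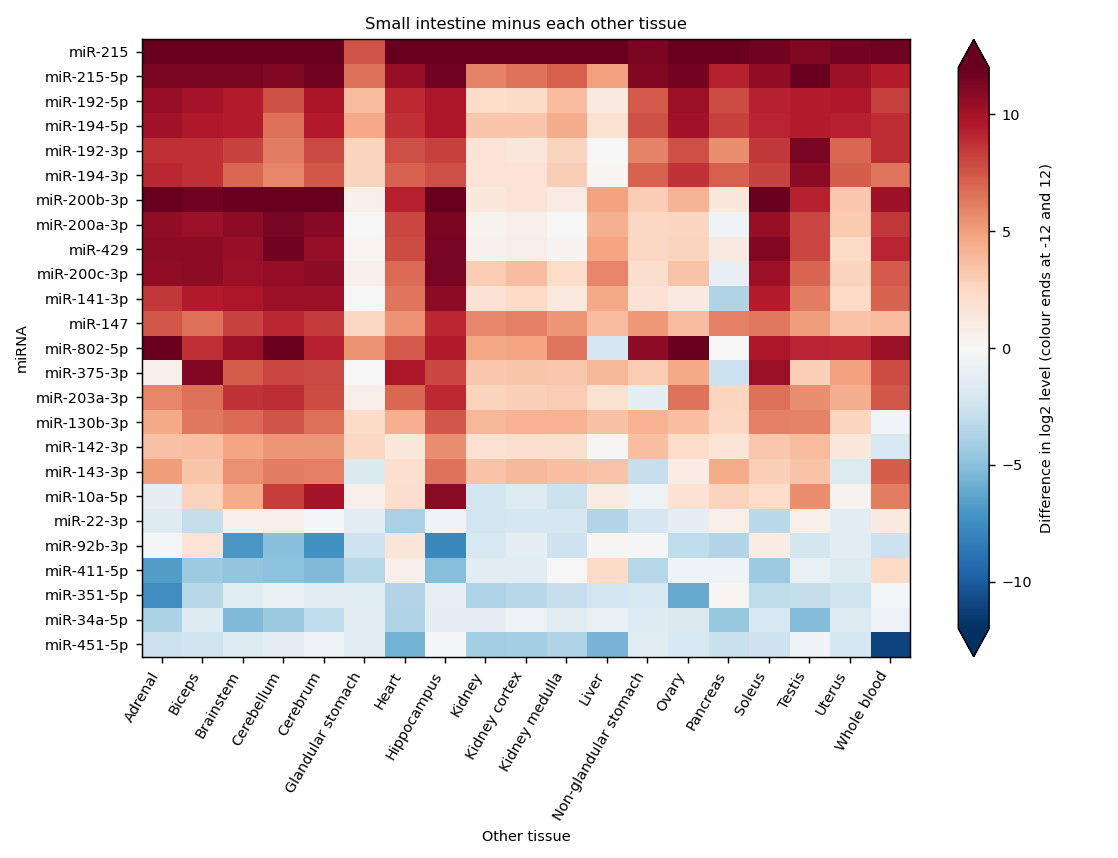
Difference in log2 level between small intestine and each of 19 other tissues (columns) for 25 miRNAs (rows), after upper quartile scaling, with red for higher and blue for lower in small intestine. miR-215, miR-192-5p, miR-194-5p and miR-147 are red in every column, the row of miR-192-3p is near 0 for liver, miR-141-3p and miR-375-3p are blue for pancreas, and miR-34a-5p is blue in every column.

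miRNAs of the list of proliferation clusters were higher for all 13 names (median log2FC 1.49), and for 10 of them when libraries were scaled by their total alone. miR-130b-3p had the largest difference, at 67.5, 89.9 and 144 CPM with a log2FC of 4.54 ± 0.09 (adjusted p = 7.4e-102). Every small intestine library was above every other library in CPM. After scaling, the log2 difference from whole blood was -0.37 (adjusted p = 0.0846), so that miR-130b-3p was higher than 18 of the 19 tissues by test. Its passenger strand miR-130b-5p, at 6.60, 10.8 and 20.1 CPM, had a log2FC of 4.31 ± 0.15. The miR-17-92 cluster gave log2FC from 1.37 ± 0.12 for miR-19b-3p to 2.15 ± 0.11 for miR-18a-5p. miR-25-3p and miR-16-5p were close to the other organs, with log2FC of 0.18 ± 0.07 and 0.22 ± 0.08 (adjusted p = 0.0351 and 0.0173), and both were lower when libraries were scaled by their total alone (-0.59 and -0.57).

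miRNAs of leukocytes were higher for 7 of 9 names and lower for 1, with a median log2FC of 1.14, and with library totals alone 5 were higher and 3 lower. miR-142-3p and miR-142-5p, found in all blood cell lineages, had log2FC of 2.71 ± 0.10 and 2.60 ± 0.09 (adjusted p = 1.87e-60 and 1.72e-64). After scaling, both were lower than in whole blood (log2 differences -1.94 and -1.73), although the mean CPM of miR-142-5p was 1281 in small intestine and 1008 in blood. The lowest, median and highest libraries had 445, 1222 and 1898 CPM of miR-142-5p. miR-155-5p, of activated lymphocytes and macrophages, had a log2FC of 1.99 ± 0.09, and miR-223-3p, of granulocytes, 1.83 ± 0.10. miR-181a-5p was lower, with a log2FC of -0.28 ± 0.08 (adjusted p = 0.00298), and it was highest in cerebellum.

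Smooth muscle miRNAs were higher for 4 of 4 names (median log2FC 2.78). miR-143-3p was the second most abundant miRNA of the small intestine by mean, at 163736, 267610 and 363763 CPM, with a log2FC of 3.24 ± 0.08 (adjusted p = 4.84e-85). It was lower than in both stomach labels and in uterus, and the non-glandular stomach had a median of 851507 CPM. The muscle coat was part of every sample, and its share of the wall was not measured.

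The remaining lists lay near or below the median of all names. Of all 1316 names 29.9% were higher and 20.1% lower, and of the 732 known ones 183 and 244. The share of higher names in the striated muscle and neural lists was near that of all names. Of 7 striated muscle names, 2 were higher and 2 lower (median log2FC -0.75), and with library totals alone 0 were higher and 4 lower. One of the higher names, miR-208a-3p, passed in 15 of 31 settings, and miR-133a-3p, at 310, 484 and 907 CPM, had a log2FC of 0.32 ± 0.24 (adjusted p = 0.293). Of 10 neural names, 3 were higher and 6 lower (median -0.89), and with library totals alone 1 was higher and 9 lower. miR-124-3p, the leading miRNA of neurons, was counted at 0.841, 3.20 and 18.95 CPM with a log2FC of -0.94 ± 0.25, which turned to 0.09 with 12 organs weighted equally. miR-9a-5p, of neural progenitors, gave -1.02 ± 0.16, which turned to 0.19 under the same weights. Of 8 endothelial and stromal names, 3 were higher and 5 lower, the 3 being miR-199a-5p, miR-199a-3p and miR-214-3p of fibroblasts (log2FC 1.00, 1.24 and 0.96). With library totals alone the calls of miR-199a-5p and miR-214-3p were lost (adjusted p = 0.131 and 0.224). The 3 names of erythroid cells were all lower, with a median of -2.51, and their summed level was 6.73 to 33.7 CPM against a mean of 6322 CPM in whole blood. None of the 2 liver names passed the threshold.

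**Figure D3:**
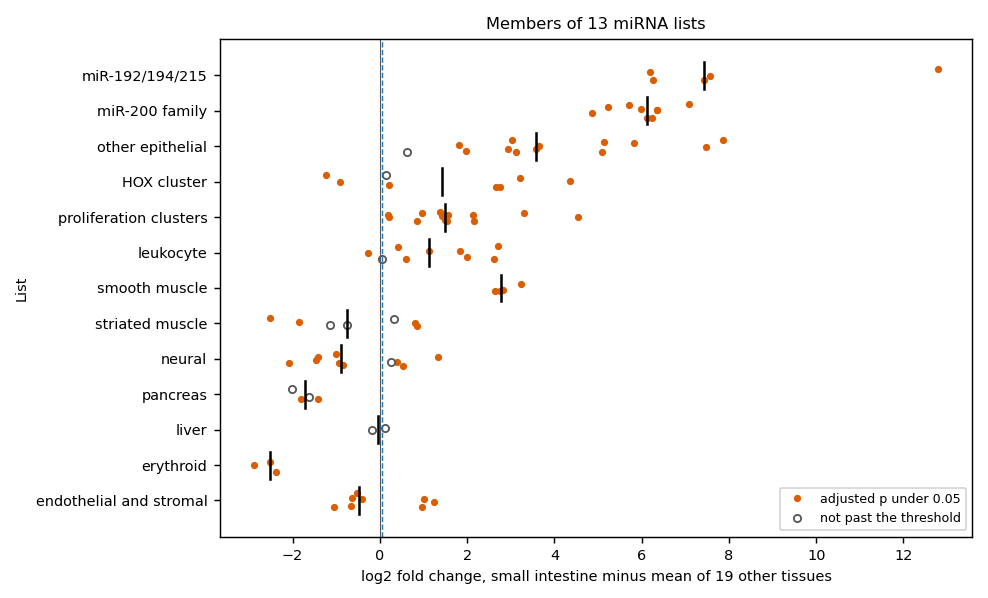
Log2 fold change of each member of 13 miRNA lists, small intestine minus the mean of 19 other tissues, with filled orange points for an adjusted p under 0.05 and open points for the rest. A black bar marks the median of the list and the dashed line the median of all 1316 names (0.05), from 7.42 for the list of the 3 markers and their passenger strands and 6.13 for the miR-200 family down to -2.51 for the erythroid list.

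miR-34a-5p was the single name lower than every tissue with upper quartile scaling. This miRNA is a direct target of p53 and restrains the cell cycle. The small intestine libraries held 2.51, 6.44 and 8.94 CPM, while the mean of the 19 tissues was 229 CPM and the brainstem, the highest, had 1507 CPM. The log2FC was -2.40 ± 0.14 (adjusted p = 2.59e-39), and the largest adjusted p of the 19 comparisons was 0.00156. The libraries nonetheless overlapped with the lowest of the others, since no small intestine library was below all 169. Its log2FC passed in each of 30 other settings, but the status of being lower than every tissue held in 19 of 26. It was lost with TMM, RLE, library totals alone, DESeq2, known names only, flow cell D1GBMACXX alone and without rat 3.

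Among names with a mean above 100 CPM in the other tissues, the most negative fold changes belonged to miRNAs of erythroid cells. miR-486-5p, counted at 0.910, 2.42 and 70.9 CPM, had a log2FC of -3.62 ± 0.55 (adjusted p = 1.86e-09), and reads that fit it and miR-3107-5p alike, counted under a joint name with a far higher level, had -3.44 ± 0.18. miR-451-5p, processed by AGO2 in red cell precursors, was counted at 5.26, 10.6 and 27.6 CPM with a log2FC of -2.88 ± 0.16 (adjusted p = 1.05e-40). miR-3107-5p alone had -3.17 ± 0.60. These levels lay far below whole blood, where the joint name had a mean of 852125 CPM against 278 CPM in small intestine.

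The other names of this group came from several tissues. miR-351-5p, of the X chromosome cluster with miR-322 and miR-503, stood at 31.5, 51.1 and 81.8 CPM with a log2FC of -2.57 ± 0.12 and was highest in adrenal at 19694 CPM. miR-92b-3p and miR-411-5p, both high in brain and the latter also in adrenal, had log2FC of -2.31 ± 0.16 and -2.26 ± 0.16. miR-206-3p, of slow skeletal muscle, and miR-463-5p, of testis, were at 0 in 14 and 16 of the 20 libraries and had log2FC of -2.51 and -2.38 (adjusted p = 8.6e-05 and 0.0267). The call of miR-463-5p was lost in 11 of 30 other settings, among them DESeq2 (adjusted p = 0.0666), each of the 3 flow cells alone and the fits without rat 3, 8, 9, 10 or 11 (adjusted p from 0.0615 to 1, log2FC -2.39 to -2.09). miR-22-3p was lower, with a log2FC of -1.26 ± 0.11, and was still the fifth most abundant miRNA of the small intestine, with a median of 16122 CPM.

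The 2 segments were then compared with the other organs one by one. In jejunum 389 names were higher (29.6%) and 242 lower (18.4%), and in ileum 318 were higher (24.2%) and 226 lower (17.2%). Both segments shared 252 higher and 208 lower names, which is 64.8% and 79.2% of the higher names of jejunum and of ileum, and 86.0% and 92.0% of the lower names. The segments use the same 169 libraries for comparison. For 3 names the jejunum was lower and the ileum higher, and for 0 names the reverse. They were miR-196b-5p, miR-196a-5p and miR-7704, the last named after its values were seen.

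Between the segments themselves, 26 names were higher in jejunum (1.98%) and 47 higher in ileum (3.57%), or 73 in either direction (5.55%). The miR-196 family, encoded within the HOX gene clusters that pattern the body from front to back, differed most among the listed miRNAs. miR-196c-5p was found at 0, 0 and 1.29 CPM in the lowest, median and highest jejunum library and at 55.1, 82.9 and 109 CPM in ileum. Its 10 jejunum libraries held 10 counts in all and the ileum libraries 3428 counts, every ileum library was above every jejunum library, and the difference was -8.35 ± 0.50 (jejunum minus ileum, log2, adjusted p = 3.33e-31). miR-196b-5p gave 0, 0.523 and 1.19 CPM in jejunum and 4.51, 17.4 and 31.4 CPM in ileum, again without overlap (-4.97 ± 0.45, adjusted p = 2.68e-19). miR-196a-5p differed by -3.73 ± 0.52 (adjusted p = 2.87e-09), on 7 counts in jejunum and 103 in ileum. The level of miR-196c-5p in ileum was above every library of the 19 other tissues, and the next tissue, the adrenal, had a median of 23.8 CPM. The study's own qPCR of rat tissues did not amplify miR-196c-5p, so these levels rest on sequencing counts alone. miR-196a-5p and miR-196b-5p were far higher elsewhere, with means of 296 CPM in soleus and 696 CPM in uterus, and their log2FC for the 2 segments together was -1.24 ± 0.33 and -0.90 ± 0.25. The latter turned to 0.52 when the 2 libraries of a rat were summed.

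miR-10a-5p, of the HOX list and with its gene on chromosome 10 as Mir196c, was the fourth most abundant miRNA of the small intestine. It stood at 24313, 30753 and 45849 CPM in jejunum and at 40637, 50212 and 81268 CPM in ileum, and 7 of the 10 ileum libraries lay above all of jejunum. The difference of -0.65 ± 0.26 between the segments did not pass (adjusted p = 0.131). Against the other organs the log2FC was 2.65 ± 0.11, with the kidney labels higher, and miR-10b-5p had 0.14 ± 0.13 (adjusted p = 0.442). In all, 5 of 8 names of the HOX list were higher and 2 lower.

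The segment differences of the marker miRNAs did not pass the test of jejunum minus ileum. miR-215 had a mean of 386398 CPM in jejunum and 209666 CPM in ileum, and all 10 jejunum libraries were above all ileum libraries. In the fit of all 21 tissues the difference was 1.04 ± 0.74 (adjusted p = 0.538). That SE rests on a spread estimate shared by the 21 tissues, so it does not measure the spread within the 2 segments. There the coefficients of variation of miR-215 were 8.90% in jejunum and 9.94% in ileum. miR-192-5p differed by -0.17 ± 0.21 and miR-194-5p by 0.60 ± 0.21 (adjusted p = 0.757 and 0.0785). miR-147 was higher in ileum, with 29.0, 42.0 and 68.8 CPM in jejunum and 81.7, 94.0 and 135 CPM in ileum, and the groups did not overlap (-0.94 ± 0.30, adjusted p = 0.0413). miR-150-5p, of mature B and T cells, was also higher in ileum, with medians of 235 and 536 CPM and 8 of 10 ileum libraries above all of jejunum (-1.04 ± 0.21, adjusted p = 6.02e-05). Against the mean of the other organs miR-150-5p was higher in ileum (log2FC 0.93 ± 0.14) and had -0.12 ± 0.15 in jejunum, and for both segments together 0.40 ± 0.10, or -0.39 with library totals alone. Single tissues were far higher, among them heart (1598 to 2676 CPM) and brainstem (1444 to 2604 CPM), against at most 1085 CPM in ileum. miR-223-3p was higher in jejunum by 0.81 ± 0.23 (adjusted p = 0.0135), with 9 of 10 jejunum libraries above all of ileum, and miR-214-3p by 0.70 ± 0.21. miR-31a-3p was higher in ileum (-1.17 ± 0.33, adjusted p = 0.0164). Over 28 settings that hold both segments, miR-196b-5p and miR-196c-5p passed in 28, miR-196a-5p and miR-150-5p in 27, miR-31a-3p in 20, miR-223-3p in 17, miR-147 in 14 and miR-214-3p in 11. The differences kept their sign in each setting, and the range was -1.16 to -0.76 for miR-147. Calls were lost without single rats for miR-147 (rats 2, 3, 4, 5, 8, 10 and 11), miR-223-3p (rats 7, 8 and 9), miR-31a-3p (rat 5) and miR-214-3p (rats 2, 5, 7, 9, 10 and 11, and the ileum library of rat 9). The RNA integrity number was 7.5 in the median jejunum library and 8.9 in the median ileum library, and its part in these differences was not tested.

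**Figure D4:**
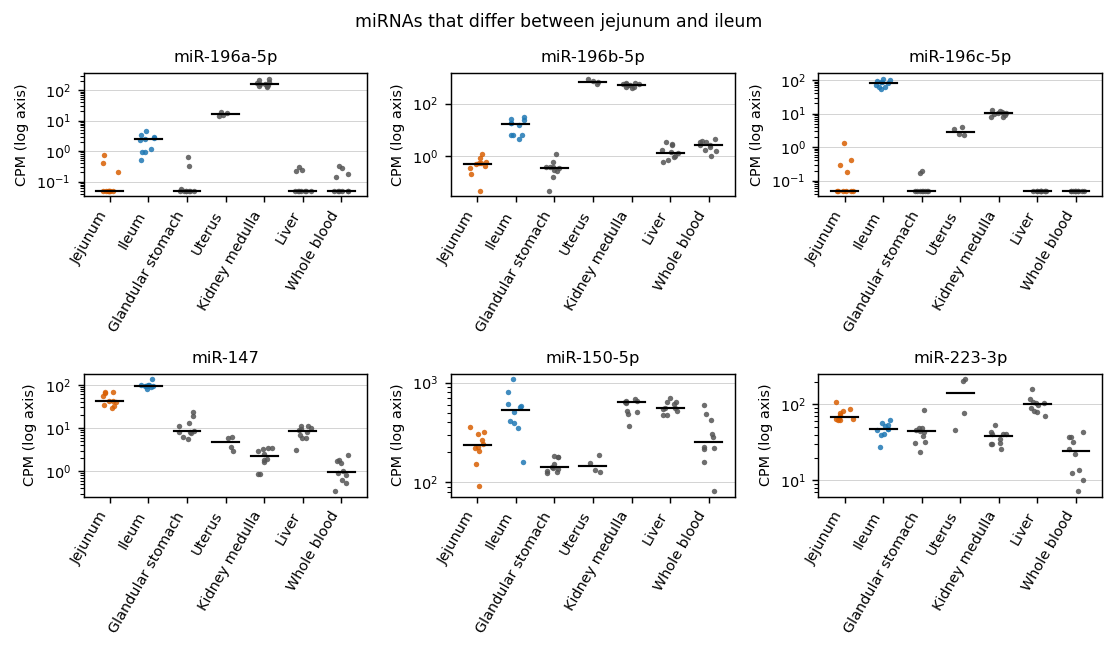
CPM on log axes for 6 miRNAs that differed between jejunum (orange) and ileum (blue), with 5 other tissues in grey, 1 point per library and a black bar at the median. Values of 0 are drawn at 0.05. Heart and brainstem, where miR-150-5p was higher than in ileum, are not drawn. The ileum libraries of miR-196c-5p (55.1 to 109 CPM) and miR-147 (81.7 to 135 CPM) lie above all jejunum libraries, while for miR-223-3p the jejunum is higher.

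Some names that were higher than every tissue varied widely among the 20 libraries. They are miR-4792, miR-6240, miR-6236, miR-3195, miR-4492, miR-6364 and miR-690, all from the human or mouse annotation and named after their values were seen. miR-4792 was counted at 1.06, 65.4 and 2531 CPM in the lowest, median and highest library, with a coefficient of variation of 203% in jejunum and 102% in ileum, against 8.90% to 12.4% for the 3 marker miRNAs. miR-6240 ran from 2.69 to 2807 CPM and miR-6236 from 1.54 to 2155 CPM. The ileum library of rat 9, the one with the lowest depth, was the highest for miR-6240, miR-6236, miR-3195 and miR-4492, and the jejunum library of rat 4 was the highest for miR-4792. Their log2FC, 8.16 ± 0.23 for miR-4792 and 5.22 ± 0.24 for miR-6240, describe means of libraries that overlap with other tissues: 15 and 4 of the 20 libraries, respectively, were above all 169. Of the names at 50 CPM or more, 7 of 146 in jejunum and 20 of 155 in ileum varied by over 100%, while the median coefficients were 18.8% and 18.3%. Without that ileum library, the log2FC of miR-6240, miR-6236, miR-3195 and miR-4492 was 5.04, 3.40, 3.97 and 3.73, and the difference between the segments -2.07, -3.28, -3.15 and -1.99. The status of being higher than every tissue held for miR-4792 in 26 of 26 other settings, for miR-6236 in 25 of 26, for miR-6240 in 23 of 26, for miR-3195 and miR-690 in 19 of 25, for miR-4492 in 17 of 25 and for miR-6364 in 8 of 20. It was lost without single rats for miR-6240 (rat 4), miR-3195 (rats 4 and 6), miR-4492 (rats 5, 8, 9 and 10) and miR-6364 (rats 2, 3, 4, 6, 9 and 10), and for miR-4492 without the ileum library of rat 9. Without the ileum library of rat 9, 345 names were higher and 252 lower, and 20 were higher than every tissue.

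The sexes were compared on the summed counts of jejunum and ileum of each rat, 5 female against 5 male. Of 552 names tested, 0 passed an adjusted p of 0.05 by edgeR (0% in each direction), and 55 had an unadjusted p below 0.05. DESeq2 called 9, 3 higher and 6 lower in female. The 3 names with the smallest adjusted p were miR-381-3p, miR-210-3p and miR-136-3p, with log2 differences of 0.38 ± 0.08, 0.36 ± 0.10 and 0.36 ± 0.11 (adjusted p = 0.39 for each by edgeR). miR-381-3p was at 24.0 to 31.0 CPM in the 5 females and 18.95 to 21.3 CPM in the 5 males, without overlap. The marker miR-215 gave 0.02 ± 0.18 (adjusted p = 0.983).

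The ends of the marker miRNAs were examined in the tables of sequence variants (isomiRs), since a base more or less at the 5′ end moves the seed. Each rat was its own control, with the mean of its 2 small intestine libraries against the mean of its other libraries, and an exact permutation test over all sign flips of the 10 differences. The RefSeq sequence made up 62.1% of miR-194-5p counts in small intestine and 72.6% in other tissues. It was lower in 10 of 10 rats (exact permutation p = 0.00195, the smallest that 10 rats allow, adjusted p = 0.00879 over 9 measures). The mean length was 22.29 against 22.01 bases, longer in 10 of 10 rats with the same p. The share of the RefSeq sequence was 57.6% in jejunum and 66.6% in ileum (median 69.3%). Pancreas, at 60.7% (n = 10), also lay below the small intestine mean. In libraries with at least 1000 counts, that share was lower in small intestine in 9 of 10 rats. The other 7 measures, of miR-192-5p and miR-215 and of the 5′ end of miR-194-5p, did not pass. Their adjusted p lay between 0.352 and 0.998 by the same exact permutation test. In 12 libraries over 20% of the counts of a marker began at another base, among them the ileum library of rat 3 with 39.4% to 67.3%. Most of these 12 libraries, that ileum library among them, had a run in the same lane of flow cell C2BUMACXX. The part of that lane was not tested. Without these 12 libraries 4 of the 7 measures passed, with adjusted p from 0.00352 to 0.00879 by the exact permutation test. The 12 were picked after the data were seen, by the share at another 5′ base, which is itself a measure tested. These p values therefore cannot stand as a test of their own.

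The longer reads of miR-194-5p mostly carried an added T (U in RNA). The forms are shown as DNA letters read from the deposited sequences, with the seed in capitals, because the last base alone sets them apart.
RefSeq form: tGTAACAGcaactccatgtgga
with T: tGTAACAGcaactccatgtggat
with C: tGTAACAGcaactccatgtggac
with A: tGTAACAGcaactccatgtggaa
The form with T was chosen after its values were seen and is described without a test. It made up 20.2% ± 6.43 (SD, n = 20) of miR-194-5p counts in small intestine, from 9.54% to 30.1%, and 3.25% ± 3.02 (n = 152) in the other libraries with at least 100 counts. Without the ileum library of rat 3, which had the lowest share, it was 20.8% ± 6.08 (n = 19). The jejunum held 18.99% to 30.1% and the ileum 9.54% to 17.3%, and liver, which is rich in miR-194-5p, held 4.71% to 6.01%. In RefSeq the base after the mature sequence is C in the Mir194-1 hairpin, next to Mir215, and A in the Mir194-2 hairpin, next to Mir192, so that T is in neither. The form with C made up 1.499% ± 0.700 in small intestine against 0.277% ± 0.485 elsewhere, and the form with A 4.85% ± 1.37 against 6.81% ± 2.04. Outside the small intestine the highest shares of the T form were in single libraries: non-glandular stomach of rat 2 (20.5% of 161 counts), soleus of rat 9 (17.4% of 465), testis of rat 4 (14.2% of 127), glandular stomach of rat 3 (13.2% of 25879) and uterus of rat 9 (12.0% of 108). Each of these 5 libraries also had the highest miR-215 of its tissue, from 232 to 12303 CPM, against medians of 21.65 to 306 CPM. The library with the next highest share, pancreas of rat 11 (9.45% of 127 counts), did not. It held 44.6 CPM of miR-215, below the pancreas median of 65.4 CPM. Whether small intestine RNA or reads reached the 5 libraries was not tested.

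**Figure D5:**
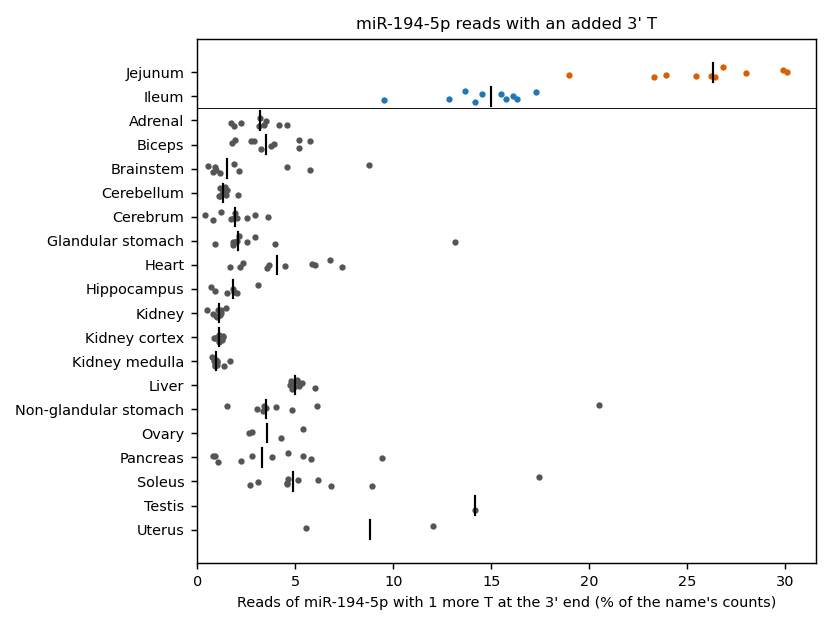
Share of miR-194-5p counts with 1 more T at the 3′ end, in percent, with 1 point per library that had at least 100 counts and a black bar at the median of each tissue (jejunum orange, ileum blue, other tissues grey). Jejunum (18.99% to 30.1%) lies above ileum (9.54% to 17.3%), and most other libraries lie below both, apart from single libraries of non-glandular stomach, soleus, testis, glandular stomach and uterus.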

How the data were processed

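Small RNA of the tissues was sequenced from TruSeq small RNA libraries on a HiSeq2000. Per the labels, the authors trimmed adapters with cutadapt 1.4.1 and assigned reads to miRNA names and to sequence variants of them, and the deposited values are raw read counts per name and run. Names not in the rat annotation come from other species or are predicted. The reads carry no molecular identifiers, so counts are not independent molecules. Of 458 runs, 444 were summed per library, and 14 that repeat a named flow cell lane were left out.

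Counts were fitted in R 4.3.3 with edgeR 4.0.16 (quasi-likelihood, upper quartile scaling, filterByExpr by tissue, 1 coefficient per tissue), which left 1316 of 7534 names. Contrasts were the mean of jejunum and ileum minus the mean of the 19 tissues, minus each tissue, each segment alone and jejunum minus ileum. The last contrast was added after the data were seen. Sexes were compared on the counts of both segments summed per rat. Isomir shares, with at least 100 counts of the miRNA in a library, were compared by an exact permutation test. DESeq2 1.42.0 was an alternative, as were other scalings, filters, flow cells, libraries and weights. The members and lists were chosen with earlier results of these data known. Named miRNAs were the members of the lists, the 10 largest higher names with each of the 20 libraries above the mean of each tissue, the 10 most negative names above 100 CPM elsewhere, the 5 most abundant, and the 3 with the smallest p between sexes. Predicted names and precursors were counted and not named.

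Tissues came from the same 10 rats, so rat numbers pair the libraries. The deviations of jejunum and ileum of a rat from their segment means had a median correlation of -0.11, against -0.03 between rats. On simulated counts, 99.0% of 195 names changed by 2 on the log2 scale in both directions were recovered (944 names tested), with 22 calls among 749 unchanged names. With all 200 changes upward, 524 of 751 unchanged names were called, since scaling then moves the others.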

Additional observations from a re-analysis of the deposited data

Results flagged for a closer look

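A library far from the other 9 of its segment was found in 15 of 48 groups tested (24 names in 2 segments). The rule flags about 1 group in 20 when values are normally distributed. That rate need not hold for skewed CPM or for names with few counts. Among the flagged groups, miR-463-5p and miR-206-3p in ileum and miR-196c-5p in jejunum had a median of 0 CPM. In ileum the flags were rat 3 for miR-215-5p (576 CPM), miR-486-5p (70.9 CPM), miR-3107-5p (25.5 CPM) and miR-206-3p (0.797 CPM). That ileum library is among the 12 with over 20% of a marker's counts at another 5′ base. Rat 7 stood out for miR-200b-3p (6082 CPM), miR-147 (135 CPM) and miR-130b-5p (20.1 CPM). Rat 6 stood out for the composite miR-192-5p;miR-215 (186 CPM), rat 10 for miR-3107-5p;miR-486-5p (496 CPM), and rat 11 for miR-463-5p (0.150 CPM) and miR-92b-3p (36.4 CPM). In jejunum they were rat 3 for miR-3107-5p (5.28 CPM), rat 6 for miR-451-5p (27.6 CPM), and rat 4 for miR-196c-5p (1.29 CPM) and miR-4792 (2531 CPM).

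Of 119 names compared between the segments, 16 differed by edgeR's test of jejunum minus ileum (log2), against 5.55% of all 1316 names. The 119 include names chosen after their values were seen. The differences were -8.89 for miR-196c-3p, the passenger strand, -8.35 for miR-196c-5p, -4.97 for miR-196b-5p, -3.73 for miR-196a-5p, -1.17 for miR-31a-3p, -1.04 for miR-150-5p, -0.94 for miR-147, 0.81 for miR-223-3p, 0.70 for miR-214-3p, 1.08 for miR-146b-5p and 1.06 for miR-132-3p. The widely varying names gave -4.02 for miR-6364, -3.94 for miR-6236, -3.72 for miR-3195, -2.50 for miR-6240 and -2.38 for miR-4492.

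The libraries labelled Duodenum were left out of the comparisons as reported and entered alternative settings alone. Their medians were 218927 CPM of miR-215, 125171 CPM of miR-192-5p and 13074 CPM of miR-194-5p, and the libraries of rats 2, 4, 7 and 11 held 6.35 to 55.8 CPM of miR-215 while the other 6 held 215526 to 323686 CPM.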

How the results depend on the processing

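The numbers of names higher and lower (393 and 264) were 395 and 263 with TMM, 429 and 263 with RLE scaling and 409 and 330 with DESeq2 (42 adjusted p not given). Names higher moved to 227 with library totals alone, 712 without a filter on low counts (scaling taken from the filtered names), 247 with known names only and 260 in flow cell D1GBMACXX alone. Names lower moved to 135 in that flow cell and 160 in C2BUMACXX. With rat as a replicate block they were 387 and 266. Without single rats they were 353 to 425 and 247 to 258. Names higher than every tissue (22) were 10 in flow cell C2BUMACXX, 36 without whole blood and testis and 16 to 25 without single rats. Names lower than every tissue (1) were 3 with TMM, 3 with RLE, 3 with DESeq2, 2 with library totals, 0 with known names only, 0 in flow cell D1GBMACXX, 5 without blood and testis, and 0 to 2 without single rats. Between segments, names higher in jejunum (26) were 40 with RLE, 54 with known names only, 15, 17 and 8 in flow cells D1GBMACXX, C2BUMACXX and D2C4RACXX, 14 with the 6 libraries kept, 46 without blood and testis, 15 with duodenum in either role, 16 with dorsal root ganglion, and 15 (without rat 11) to 45 (without rat 3). Names higher in ileum (47) were 17, 20 and 29 in the 3 flow cells. Between sexes, DESeq2 called 3 and 6 names and no filter gave 1 and 4. Without the 12 libraries with over 20% of a marker in another 5′ end, 4 more isomir measures passed: miR-192-5p mean length (0.048 bases) and other 5′ ends (-1.99 points), miR-215 mean length (0.024 bases) and top sequence (3.36 points). These 12 libraries were picked by a measure that was itself tested, as given above. The sign turned for miR-10b-5p (-0.66 with library totals, -0.33 with 12 organs weighted equally), miR-25-3p (-0.59, -0.30 and, with duodenum as the third segment, -0.00206), miR-16-5p (-0.57, -0.0387 and -0.0501), miR-150-5p (-0.39 with totals, -0.031 with duodenum), miR-196b-5p (0.52 with segments summed), miR-124-3p (0.0895 with organs, 1.17 with duodenum) and miR-9a-5p (0.19 and 0.91). Among list members not described above it turned with library totals for miR-10b-3p (-0.53), miR-146b-5p (-0.22), miR-342-3p (-0.73), miR-138-5p (-0.52), miR-7a-5p (-0.28) and miR-132-3p (-0.40). With duodenum it turned for miR-9a-3p (0.63), miR-219a-5p (0.31), miR-338-3p (0.077), miR-216a-5p (1.39) and miR-217-5p (1.63). It also turned for miR-10b-3p in flow cell D1GBMACXX (-1.19), with the 6 libraries kept (-0.18) and with organs (-0.083), and for miR-208a-3p in flow cell D2C4RACXX (-0.99) and with organs (-0.017). The cause was not tested.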

Other observations

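Further miRNAs differed between the segments and, apart from miR-132-3p of the neural list, are named after their values were seen. miR-222-3p and miR-221-3p, from 1 cluster on the X chromosome, had medians of 21.8 and 29.1 CPM in jejunum and 55.1 and 53.8 CPM in ileum, and each of the 10 ileum libraries was above all of jejunum. Their differences by edgeR were -1.38 ± 0.23 and -0.82 ± 0.21 (jejunum minus ileum, log2, adjusted p = 7.58e-07 and 0.00551). The passenger strand miR-221-5p gave -1.32 ± 0.28. miR-204-5p was also higher in ileum, with medians of 49.2 and 83.3 CPM (-0.80 ± 0.23).

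miR-378a-3p, encoded within the gene of the metabolic coactivator PGC-1 beta, was higher in jejunum with medians of 8330 and 5783 CPM (0.64 ± 0.16, adjusted p = 0.00275 by edgeR), and its partner strand miR-378a-5p gave 1.16 ± 0.19. miR-132-3p and miR-212-3p, from 1 cluster and known as targets of CREB, were higher in jejunum by 1.06 ± 0.21 and 1.02 ± 0.25. miR-23b-3p was higher by 0.98 ± 0.17, with medians of 746 and 418 CPM. Over 28 settings, miR-222-3p and miR-23b-3p passed in 28, miR-378a-5p and miR-132-3p in 27, miR-221-5p in 26, miR-212-3p in 24, miR-221-3p and miR-204-5p in 22, and miR-378a-3p in 21.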
